A study of Mus musculus with 6 samples.

Results

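The NR4A nuclear receptors, the EGR zinc finger factors and the NAB corepressors were followed in double negative T (DNT) cells with and without IL-33. They were taken as the 8 genes Nr4a1, Nr4a2, Nr4a3, Egr1, Egr2, Egr3, Nab1 and Nab2, matched by symbol to the Ensembl identifiers of the deposited counts. All 8 were among the 26128 genes listed and all 8 among the 14671 genes with enough counts to be tested. The fourth mouse EGR gene, Egr4, is not one of the 8 and is given beside them. These genes were chosen by their counts in the same 6 libraries, that is, by their difference between the groups, so that difference is described here without a test.

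All DNT cells were made in vitro out of CD4+CD25- T cells of spleen and lymph node of adult, male C57BL/6 mice, with mature DBA/2 dendritic cells and IL-2 (the labels name spleen alone), and were sorted as CD3+NK1.1-CD4-CD8- cells. The 3 control libraries came from DNT cells on anti-CD3/CD28 beads for 48 h, and the 3 IL-33 libraries from DNT cells on the same beads for 48 h with IL-33 at 50 ng/ml. The beads, which engage the T cell receptor complex and its costimulator, were thus present in every library. Neither the labels nor the methods tell if replicates were separate mice, conversions or wells, so p-values measure only the spread between these libraries, which may be technical.

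NR4A and EGR genes are immediate-early genes, which T cells transcribe within minutes of T cell receptor engagement, before new protein is made. The NR4A proteins are orphan nuclear receptors that bind DNA without a known natural ligand, and in T cells they are known for roles in thymic deletion, regulatory T cells, tolerance and exhaustion. The EGR proteins bind GC-rich sites through zinc fingers; EGR1 is driven mainly by the ERK kinases through serum response elements, while EGR2 and EGR3 depend strongly on calcineurin and NFAT and are known as brakes on T cell activation. NAB1 and NAB2 bind EGR proteins and recruit the NuRD chromatin complex to repress their targets, and NAB2 is itself an EGR target.

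The letters in front of the start sites are shown first, because the 3 families are tied to each other and to T cell receptor signals through sites of this kind. Promoter windows of RefSeq on GRCm38.p6, from 250 bases before to 50 bases after a start, were at hand for 6 of the 8 genes (Nr4a1, Nr4a2, Nr4a3, Egr2, Nab1 and Nab2) in 10 windows, of which 5 belong to Egr2 and partly overlap. Each was searched on both strands for the EGR site GCGNGGGCG, the NR4A monomer site or NBRE AAAGGTCA, the cAMP response element TGACGTCA, and the CArG box bound by serum response factor. Stretches with a site follow, 5′ to 3′ on the gene's strand, with the sites in capitals, for Nr4a1 (chr15:101266696-101266845, plus strand), Nr4a2 (chr2:57124004-57124153, minus strand) and Egr2 (chr10:67537719-67537868, plus strand, 1 of the 4 windows with a site), none of which touches an annotated exon. For Nab1, whose window lies in annotated exon, only the 3 sites with their nearest bases are given (minus strand, chr1:52500571-52500599, chr1:52500539-52500567 and chr1:52500468-52500496).
Nr4a1: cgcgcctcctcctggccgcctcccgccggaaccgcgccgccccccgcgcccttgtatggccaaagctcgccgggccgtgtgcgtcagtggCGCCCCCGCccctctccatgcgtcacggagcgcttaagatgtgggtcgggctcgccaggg
Nr4a2: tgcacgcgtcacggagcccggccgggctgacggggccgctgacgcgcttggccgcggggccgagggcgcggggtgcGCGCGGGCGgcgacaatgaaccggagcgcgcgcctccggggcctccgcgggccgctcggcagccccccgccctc
Egr2: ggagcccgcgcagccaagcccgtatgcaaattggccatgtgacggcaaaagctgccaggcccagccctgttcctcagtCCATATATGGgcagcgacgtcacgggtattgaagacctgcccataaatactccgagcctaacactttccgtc
Nab1 first site: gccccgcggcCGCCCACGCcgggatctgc
Nab1 second site: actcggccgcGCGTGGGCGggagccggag
Nab1 last site: gcggggcgggGCGGGGGCGgcggaggtgg

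Nab1 held 3 EGR sites, Nr4a1 held 1 and Nr4a2 held 1, and the windows of Nr4a3, Egr2 and Nab2 held none. Of all 32851 promoter windows of this length 5.55% held an EGR site, and of the 3148 windows with at least 70% G and C 28.7% did. The windows of Nr4a1, Nr4a2 and Nab1 had 72.3%, 81.7% and 81.7% G and C, against a median of 52.7% over all windows. A CArG box was found in 4 of the 5 windows of Egr2, in 3 of them at the same place, and in no window of the other 5 genes; 1.63% of all windows held one. The NBRE (1.51% of all windows) and the cAMP response element (1.79%) were found in none of the 10. These matches describe letters in a short window only.

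The 6 libraries held between 20256342 and 22336050 counts each. A count of 0 in a library allows a level of up to 0.135 to 0.148 CPM (3 counts), a limit for counting error alone. CPM are counts per 1000000 counts of the library after TMM scaling, and FPKM are CPM divided by the merged exon length in kilobases. The T cell markers had high and similar summed levels over 8 genes, of 2250 to 2400 CPM without IL-33 and 2350 to 2420 CPM with it. Of these, Cd5 alone was low, at 6.68 and 4.97 CPM in the mean. Of the coreceptors the sort had excluded, Cd4 was at 0.934 and 0.373 CPM in the mean without and with IL-33, whereas Cd8a was at 545 and 400 CPM and Cd8b1 at 9.68 and 16.3 CPM. Of 3 natural killer cell markers, Klrb1c, the gene of NK1.1, was at 33.5 and 25.6 CPM without and with IL-33. Eomes was at 373 and 358 CPM, whereas Ncr1, at 0.0478 and 0.106 CPM, had too few counts to be tested. Of 9 mast cell and basophil markers 7 were listed and 3 could be tested, 1 of them past both thresholds, Cpa3, which fell; their summed level was 16.3 to 22.2 CPM without IL-33 and 11.7 to 14.9 CPM with it, and the receptor genes Fcer1a and Ms4a2 were at 0.392 CPM or less in the mean. Of 11 dendritic and myeloid markers 10 were listed, with a summed level of 248 to 255 CPM without IL-33 and 207 to 210 CPM with it, most of it from Ccr2 and Itgax; of 6 tested, Itgax fell from 54.6 to 26.0 CPM and Itgam rose from 2.61 to 4.83 CPM past both thresholds, while Flt3, Csf1r, Lyz2 and Adgre1 were all at 0.305 CPM or less in the mean. Among 7 B cell markers 5 were listed, with a summed level of 5.41 to 5.84 and 5.77 to 6.35 CPM. The part of other cells in the levels below was not tested, and in bulk RNA fewer cells that transcribe a gene and less of its RNA per cell cannot be told apart.

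With IL-33 all 3 NR4A genes, Egr2, Egr3 and Nab2 were lower, and Egr1 and Nab1 were higher. The groups did not overlap in any of the 8 genes, where 38.9% of all genes tested had groups that do not overlap (19.4% with IL-33 higher and 19.5% with IL-33 lower). In edgeR's fit over all genes 8 of 8 had an adjusted p under 0.05 (2 higher and 6 lower), beside 27.5% of all genes tested (13.6% higher and 13.9% lower), and 5 of 8 also differed by 1.5-fold or more, the threshold of the study, beside 4.87% of all genes. Of these 5, Egr1 was higher (2.47% of all genes were called higher) and Nr4a2, Nr4a3, Egr2 and Egr3 were lower (2.39% were called lower). Over 12 alternatives the adjusted p was 0.05 or more in 8 for Nab1, in 6 for Egr3 and in 2 for Nab2. Since these values chose the genes, nothing is read from the counts.

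**Figure D1:**
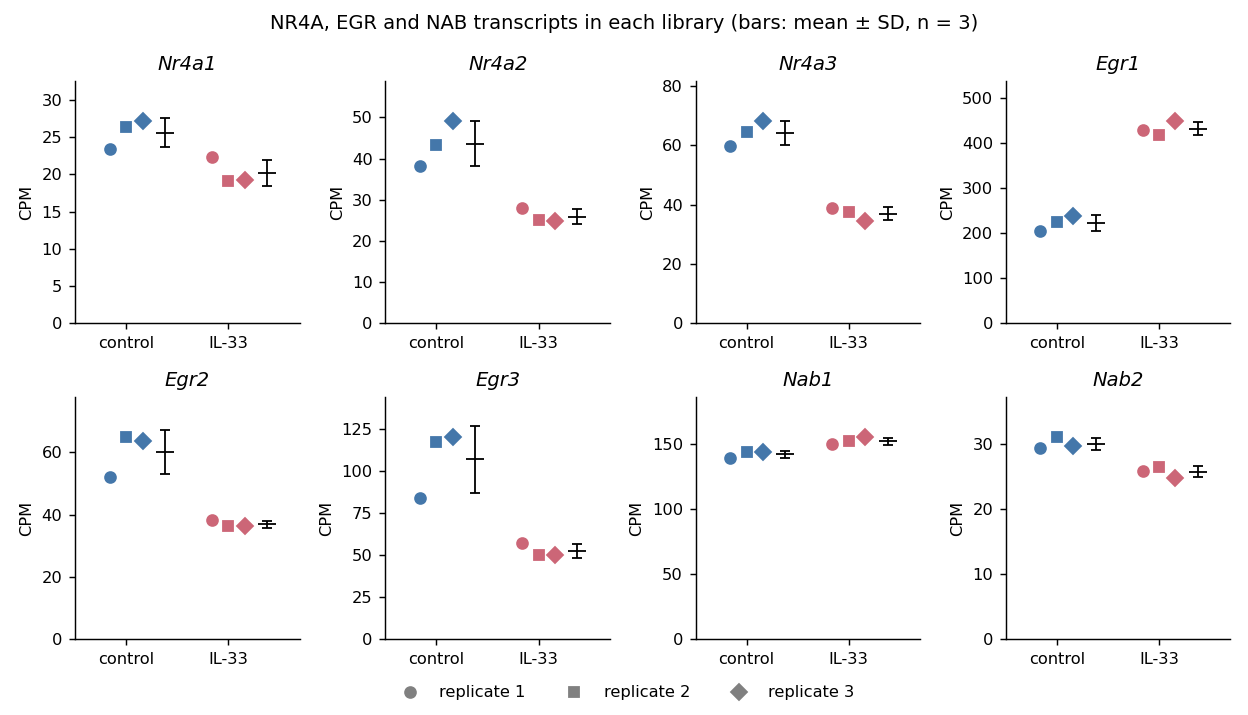
Level of each gene in each library, in CPM on axes that start at 0; the marker shape gives the replicate, and the black bar gives the mean ± SD of 3 libraries. Egr1 lies between 419 and 448 CPM with IL-33 and between 204 and 239 CPM without it, whereas the other EGR genes and the NR4A genes lie lower with IL-33 in every library.

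Among the NR4A receptors, Nr4a3 (ENSMUSG00000028341, chromosome 4 from 48045153 to 48086447 on GRCm38, plus strand), also known as NOR1, gave 1266, 1313 and 1490 counts in the control libraries and 835, 787 and 769 counts with IL-33. This was 59.6, 64.6 and 68.0 CPM against 38.8, 37.5 and 34.6 CPM. The lowest control library stood well above the highest IL-33 library, and the fold over control was 0.577. Nr4a2 (ENSMUSG00000026826, chromosome 2 from 57106830 to 57124003, minus strand), also known as NURR1, had 38.2, 43.4 and 49.0 CPM without IL-33 and 27.9, 25.0 and 24.8 CPM with it, from 811, 883 and 1074 counts and 601, 525 and 552 counts. Its means were 43.6 ± 5.40 and 25.9 ± 1.74 CPM (SD, n = 3 per group), for a log2 fold change of -0.75 with a standard error of 0.0718 and a 95% interval from -0.89 to -0.60. The 3 control libraries of Nr4a2 were more scattered than the 3 with IL-33, and again the groups were apart.

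Nr4a1 (ENSMUSG00000023034, chromosome 15 from 101254269 to 101274795, plus strand), or NUR77, the NR4A gene whose reporter is widely used to read T cell receptor signal strength, differed least of the 3. It had 23.4, 26.4 and 27.1 CPM without IL-33 and 22.3, 19.1 and 19.3 CPM with it, from 401 to 594 counts per library. Its groups nearly met, between control replicate 1 and IL-33 replicate 1. The means were 25.6 ± 1.98 and 20.2 ± 1.79 CPM (SD, n = 3 per group), for a log2 fold change of -0.34 (standard error 0.0825, 95% interval from -0.50 to -0.18), under the fold change threshold.

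**Figure D2:**
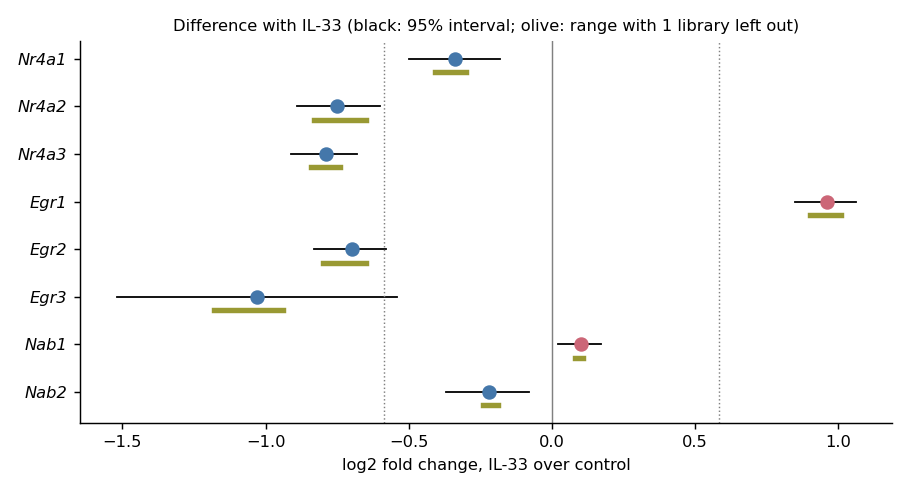
Log2 fold change of each gene with IL-33 over control (points), with its 95% interval from edgeR's fit (black) and the range of the value when each library is left out in turn (olive); dotted lines mark the threshold of 1.5-fold. Egr1 at 0.96 stands opposite Egr2 at -0.70 and Egr3 at -1.03, and no range crosses 0.

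The EGR genes went in opposite directions. Egr1 (ENSMUSG00000038418, chromosome 18 from 34859823 to 34864984, plus strand) had 4327, 4565 and 5235 counts without IL-33 and 9236, 8790 and 9959 counts with it, which is 204, 225 and 239 CPM against 429, 419 and 448 CPM. Every IL-33 library thus held far more Egr1 than any control library, and the fold over control was 1.94. Egr3 (ENSMUSG00000033730, chromosome 14 from 70077203 to 70082614, plus strand), a calcineurin-dependent factor known to limit T cell activation, had 83.8, 117 and 120 CPM without IL-33 and 57.1, 49.9 and 49.8 CPM with it, from 1778, 2376 and 2621 counts and 1228, 1047 and 1107 counts. Its log2 fold change was -1.03 (standard error 0.179, 95% interval from -1.52 to -0.54), the largest in size and the least precise of the 8. With any 1 library other than control replicate 1 left out Egr3 no longer had an adjusted p under 0.05, at log2 fold changes from -1.10 to -0.94. Libraries were left out in edgeR's fit alone, not in DESeq2 or limma-voom. Control replicate 1 stood apart below the other 2 control libraries, but above all IL-33 libraries.

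Egr2 (ENSMUSG00000037868, chromosome 10 from 67535475 to 67542188, plus strand), which acts with EGR3 in T cell anergy, had 52.0, 64.8 and 63.7 CPM without IL-33 and 38.2, 36.2 and 36.2 CPM with it, from 1103, 1316 and 1395 counts and 822, 760 and 805 counts. Its means were 60.1 ± 7.09 and 36.9 ± 1.15 CPM (SD, n = 3 per group), for a log2 fold change of -0.70 (standard error 0.0625, 95% interval from -0.83 to -0.58). As in Egr3, control replicate 1 was the lowest control library, and the IL-33 libraries lay close together. Egr4 (ENSMUSG00000071341) was close to the limit of detection, with 8, 3 and 3 counts without IL-33 and 4, 0 and 9 counts with it, and did not have enough counts to be tested. Its IL-33 libraries alone spread from 0 to 9 counts, so no difference of Egr4 was detectable at this depth.

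The NAB corepressors differed little. Nab1 (ENSMUSG00000002881, chromosome 1 from 52457294 to 52500679, minus strand) had 139, 144 and 144 CPM without IL-33 and 150, 152 and 155 CPM with it, from 2930 to 3444 counts per library. The log2 fold change of Nab1 was 0.10 (standard error 0.0373, 95% interval from 0.02 to 0.17), a fold of 1.07 between groups that were apart by a narrow margin. Nab1 was past the adjusted p threshold in this fit but not in most alternatives, and came to 0.08 without control replicate 1. Nab2 (ENSMUSG00000025402, chromosome 10 from 127660918 to 127668568, minus strand) had 29.4, 31.0 and 29.6 CPM without IL-33 and 25.9, 26.4 and 24.8 CPM with it, from 551 to 648 counts per library. Its log2 fold change was -0.22 (standard error 0.0726, 95% interval from -0.37 to -0.08), a fold of 0.857. Any link between the levels of Nab2 and of the EGR genes in these libraries was not tested.

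Nab2 shares exon bases with 2 protein-coding genes on the other strand, 40 with Stat6 and 151 with Nemp1, and 1050 with the antisense gene Gm16229, which is not among the genes listed. Whether reads were counted by strand is not stated in the methods or the labels, which leaves the level of Nab2 uncertain. Stat6 had 203 ± 4.51 CPM without IL-33 and 195 ± 2.02 CPM with it (SD, n = 3 per group), for a log2 fold change of -0.06 (adjusted p = 0.214 in the quasi-likelihood test of edgeR, Benjamini-Hochberg adjusted). Nemp1 had 42.6 ± 2.15 and 42.0 ± 1.66 CPM (adjusted p = 0.858 from the same test). No other gene of the 8 shares its span with an annotated gene.

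Levels of different genes were compared per length, as FPKM. Without IL-33 Egr1 was the most abundant at 49.6 ± 3.93 FPKM (SD, n = 3), above 93.7% of all genes tested, followed by Nab1 at 34.7 ± 0.632 FPKM. Egr3 came next at 24.2 ± 4.53 FPKM and Egr2 at 17.7 ± 2.09 FPKM. Their ranges met, since the lowest Egr3 value was 19.0 and the highest Egr2 value 19.1 FPKM, but in different libraries. Within each control library Egr3 was above Egr2, with ratios of Egr2 to Egr3 of 0.804, 0.718 and 0.690. Nr4a2 at 10.7 ± 1.33, Nr4a3 at 10.7 ± 0.701 and Nab2 at 10.2 ± 0.305 FPKM overlapped one another and could not be ranked, and Nr4a1 was lowest at 7.30 ± 0.564 FPKM, still above 59.4% of all genes.

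With IL-33 the order was Egr1 at 96.4 ± 3.27, Nab1 at 37.1 ± 0.632, Egr3 at 11.9 ± 0.947 and Egr2 at 10.9 ± 0.337 FPKM (SD, n = 3), followed by Nab2 at 8.74 ± 0.280 FPKM. Nab2, level with Nr4a2 and Nr4a3 in the control libraries, was thus above all NR4A genes here. The 3 NR4A genes, at 6.39 ± 0.428 for Nr4a2, 6.18 ± 0.361 for Nr4a3 and 5.77 ± 0.511 FPKM for Nr4a1, overlapped between libraries. Within each IL-33 library Nr4a1 had the smallest share of their sum, at 32.2%, 30.5% and 31.6%. Nr4a2 (34.9%, 34.5% and 35.2%) and Nr4a3 (32.9%, 35.0% and 33.2%) changed order between libraries. The merged length holds the exons of all isoforms and so understates the level of a gene with a short main isoform.

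The makeup of each family, a share within each library that does not depend on the scaling between libraries, differed most in the EGR family. Egr1 made up 57.0%, 52.4% and 53.7% of the summed FPKM of Egr1, Egr2 and Egr3 in the control libraries and 79.8%, 81.0% and 82.0% in the IL-33 libraries. The ratio of Egr1 to Egr2 was 2.82 ± 0.174 without IL-33 and 8.88 ± 0.443 with it, and that of Egr1 to Egr3 2.08 ± 0.272 and 8.16 ± 0.729 (SD, n = 3 per group). In the controls Egr2 and Egr3 together held 41.9 ± 6.60 FPKM, close to the level of Egr1, and with IL-33 22.7 ± 1.28 FPKM, far below it. Because of Egr1, the sum of the 3 genes was higher with IL-33, at 119 ± 3.30 against 91.5 ± 10.3 FPKM.

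The NR4A family had a lower sum with IL-33, at 18.3 ± 1.23 against 28.7 ± 2.57 FPKM (SD, n = 3 per group), and a makeup that moved less. Nr4a1 had 25.4% ± 0.572 of the sum without IL-33 and 31.4% ± 0.897 with it, Nr4a3 had 37.3% ± 0.912 and 33.7% ± 1.17, and Nr4a2 had 37.3% ± 1.34 and 34.8% ± 0.344. The summed NAB level was 44.9 ± 0.871 FPKM without IL-33 and 45.8 ± 0.449 FPKM with it. The EGR sum thus stood at 2.04 ± 0.200 FPKM per FPKM of NAB in the controls and at 2.60 ± 0.0740 with IL-33, and the ratio of Nab1 to Nab2 at 3.41 ± 0.0732 and 4.25 ± 0.201.

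**Figure D3:**
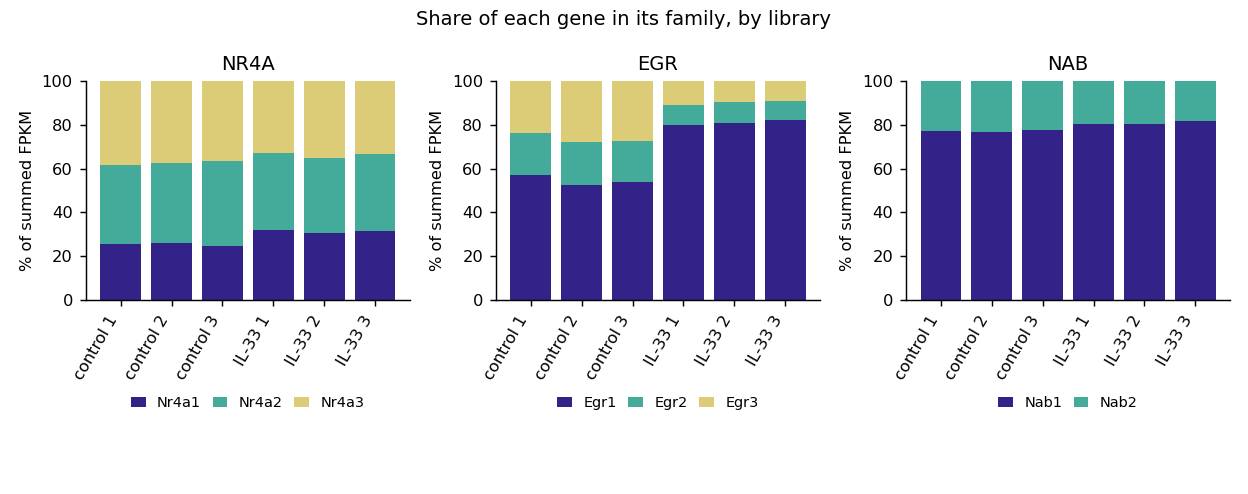
Stacked bars give the share of each gene in the summed FPKM of its family, in percent, for each of the 6 libraries. Egr1 takes 52.4% to 57.0% of the EGR sum in the control libraries and 79.8% to 82.0% in the IL-33 libraries, while the NR4A and NAB bars differ less.

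The factors also differed between control libraries. Control replicate 1 was the lowest control library in all 8 genes, where 32.7% of the 8839 genes with a mean of at least 10 CPM had their lowest control value there. For Egr3 it lay 0.33 below the control mean on the log2 scale, for Egr2 0.20 below, for Nr4a2 0.18 below and for Egr1 0.12 below, whereas Nab1 and Nab2 lay 0.03 below. The log2 SD of Egr3 over the control libraries was 0.287, larger than in 99.6% of those genes, and that of Nr4a2 was 0.179 and that of Egr2 0.176, larger than in 96.5% and 96.2%. Nab1 at 0.0264 and Nab2 at 0.0427 varied less than the median gene at 0.0579. Egr1 thus went with Egr2, Egr3 and the NR4A genes between control libraries, although it went against them between the groups.

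Within the IL-33 libraries, replicate 1 was the highest in 5 of the 6 factors, in all but Egr1, where 33.0% of all genes with at least 10 CPM had their highest IL-33 value there. The margins were small, from 0.05 above the IL-33 mean for Egr2 to 0.14 for Nr4a1 on the log2 scale, and Egr1 lay 0.01 below its mean. Without control replicate 1 the log2 fold changes were -1.18 for Egr3, -0.80 for Egr2, -0.83 for Nr4a2, -0.84 for Nr4a3, -0.40 for Nr4a1 and 0.90 for Egr1. Since that library was the lowest control in each gene, leaving it out had to move the 5 lower factors further from 0, and Egr1 towards 0. Nab2, also lower, went from -0.22 to -0.24. Of 22 other immediate-early genes with at least 10 CPM, control replicate 1 was the lowest control library in 10, or 45.5%. What set this library apart was not tested.

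**Figure D4:**
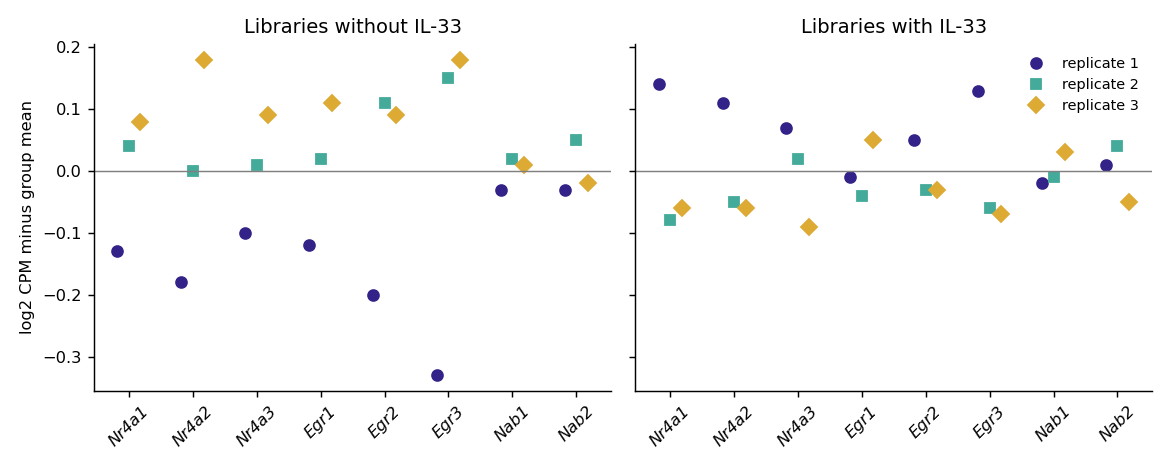
Each point is the log2 CPM of a gene in 1 library minus the mean of its group, without IL-33 (left) and with IL-33 (right). Control replicate 1 lies below 0 in every gene, down to -0.33 in Egr3, and IL-33 replicate 1 lies above 0 in the NR4A genes, Egr2 and Egr3 but not in Egr1.

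Genes that stand upstream of these factors differed by small amounts. Of 25 tested genes of the ERK and SRF route, which drives Egr1, 10 were higher and 3 lower at an adjusted p under 0.05 in edgeR's quasi-likelihood test and 0 were past both thresholds (14 at an unadjusted p under 0.05; 0 past both thresholds in DESeq2 and in limma-voom). At that adjusted p 52.0% of the list passed in edgeR, beside 27.5% of all genes tested, and the list's median log2 fold change was 0.04, beside -6.3e-04. In DESeq2 7 of the 25 and in limma-voom 12 had an adjusted p under 0.05, so the share passing depended on the method. Map2k1, the gene of the ERK kinase MEK1, rose from 124 ± 3.77 to 151 ± 2.96 CPM (SD, n = 3 per group), for a log2 fold change of 0.28 (adjusted p = 8.6e-10 in edgeR), and Mapk3, the gene of ERK1, rose by 0.22 (adjusted p = 7.0e-06). Elk4, a partner of serum response factor, fell from 85.8 ± 1.23 to 71.3 ± 2.68 CPM, a log2 fold change of -0.27 (adjusted p = 2.9e-07 in edgeR); it shares exon bases with a gene on each strand, which makes its value uncertain. Srf itself had 52.0 ± 0.194 and 52.6 ± 2.21 CPM (adjusted p = 0.873). These 4 genes were chosen after their values had been seen. RNA levels of these genes are not a measure of the activity of the route, and any link to the level of Egr1 was not tested.

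Of 21 tested genes of calcium entry, calcineurin and NFAT, which drive Egr2, Egr3 and the NR4A genes, 4 were higher and 4 lower at an adjusted p under 0.05, with 0 past both thresholds in edgeR (10 at an unadjusted p under 0.05; 0 past both thresholds in DESeq2 and in limma-voom). At that adjusted p 38.1% of the list passed in edgeR, beside 27.5% of all genes tested, and the list's median log2 fold change was 0.006. In DESeq2 6 of the 21 and in limma-voom 8 had an adjusted p under 0.05. Nfatc1, the NFAT gene that its own protein induces, fell from 199 ± 2.29 to 165 ± 7.39 CPM (SD, n = 3 per group), for a log2 fold change of -0.27 (adjusted p = 5.8e-10 in edgeR's quasi-likelihood test), and Nfatc2 fell by 0.13 (adjusted p = 0.0064). Without control replicate 3 or IL-33 replicate 2 Nfatc2 came to -0.09 and no longer passed (adjusted p = 0.127 and 0.142 in edgeR). The genes of the calcineurin catalytic subunits, Ppp3ca, Ppp3cb and Ppp3cc, had log2 fold changes from -0.02 to 0.04. These genes, too, were chosen after their values had been seen. Activity of calcineurin and NFAT was not measured, and any link to the levels of Egr2, Egr3 and the NR4A genes was not tested.

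The other immediate-early genes moved in both directions. Of 31 tested 15 were higher and 6 lower at an adjusted p under 0.05, or 67.7% beside 27.5% of all genes tested. Past both thresholds in edgeR 4 were higher and 3 lower, or 22.6% beside 4.87% of all genes tested. The list's median log2 fold change was 0.12. Fosb and Fos, which encode AP-1 subunits, rose from 1.46 ± 0.321 to 3.50 ± 0.493 CPM and from 5.35 ± 0.618 to 8.98 ± 0.940 CPM (SD, n = 3 per group), log2 fold changes of 1.25 and 0.75 (adjusted p = 1.3e-05 and 1.1e-05 in edgeR's quasi-likelihood test). Klf2, a Krüppel-like factor of resting T cells, rose by 0.72 on the log2 scale (adjusted p = 0.00476), and the gene past both thresholds beside these was Zfp36, which encodes an RNA-binding protein that destabilises cytokine messages, with a log2 fold change of 0.59. Leaving out control replicate 3 gave 0.55 for Zfp36 and leaving out IL-33 replicate 1 gave 0.57, both below the fold threshold. Arc fell from 2.02 ± 0.241 to 0.723 ± 0.165 CPM, a log2 fold change of -1.47 (adjusted p = 2.5e-04), Klf4 by 0.97 (adjusted p = 9.9e-06) and Zfp36l1 by 0.64 (adjusted p = 2.8e-09). Zfp36 and Zfp36l1 each overlap a gene on the other strand, which leaves their levels uncertain.

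Of 21 genes known in T cells as induced by or dependent on EGR factors, 7 were higher and 6 lower at an adjusted p under 0.05. This was 61.9% of the list, beside 27.5% of all genes tested. Past both thresholds 2 were higher and 2 lower, or 19.0% beside 4.87% of all genes tested. The list's median log2 fold change was 0.022. Socs1, an inhibitor of cytokine signalling that EGR2 is known to induce, fell from 47.8 ± 0.273 to 26.2 ± 3.01 CPM (SD, n = 3 per group), for a log2 fold change of -0.87 (adjusted p = 1.0e-20, edgeR's quasi-likelihood test). Socs3, of the same list, had 33.4 ± 1.90 CPM without IL-33 and 33.8 ± 4.56 CPM with it. Any link of these levels to that of Egr2 was not tested. Zbtb16, which encodes the factor PLZF of innate-like T cells, fell by 0.69 (adjusted p = 4.0e-10). Dgka, a diacylglycerol kinase that damps the RAS route, and Ndrg1, both known in anergy, rose. Dgka went from 180 ± 4.28 to 291 ± 4.07 CPM, a log2 fold change of 0.69 (adjusted p = 4.3e-35 in edgeR), and Ndrg1 rose by 0.61 (adjusted p = 2.1e-12). The list did not rise as a whole: Cblb had 372 ± 6.60 and 384 ± 2.72 CPM, and Lag3 had 601 ± 4.20 and 467 ± 9.99 CPM. Socs3, Cblb and Lag3 were named after their values had been seen. Ndrg1 came to 0.52 when IL-33 replicate 2 was left out, below the fold threshold. Dgka shares exon bases with Pmel and Ndrg1 with 2 predicted genes, all on the other strand, so both levels are uncertain.

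Of 17 genes linked to NR4A factors in exhausted and regulatory T cells, 7 were higher and 1 lower at an adjusted p under 0.05. This was 47.1% of the list, beside 27.5% of all genes tested. The list's median log2 fold change was 0.11, and 1 gene was past both thresholds, or 5.88% beside 4.87% of all genes tested. That gene was Ctla4, an inhibitory receptor, which rose from 104 ± 4.36 to 171 ± 2.60 CPM (SD, n = 3 per group), for a log2 fold change of 0.72 (adjusted p = 1.6e-31, edgeR's quasi-likelihood test). The 1 that was lower was Pdcd1, the gene of the inhibitory receptor PD-1, from 51.6 ± 1.34 to 40.2 ± 2.05 CPM, a log2 fold change of -0.36 (adjusted p = 2.6e-07), named after its value had been seen.

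Of 15 tested partners of NAB and NR4A proteins, 1 was higher and 6 lower at an adjusted p under 0.05, or 46.7% beside 27.5% of all genes tested. Only 1, Rxra, was past both thresholds, or 6.67% beside 4.87% of all genes tested. The list's median log2 fold change was -0.044. Rxra, a retinoid X receptor that pairs with NR4A1 and NR4A2, fell from 6.46 ± 0.722 to 2.99 ± 0.540 CPM (SD, n = 3 per group), for a log2 fold change of -1.11 (adjusted p = 1.3e-07, edgeR's quasi-likelihood test), while Rxrb had 50.8 ± 1.06 and 50.6 ± 1.57 CPM. Among the NuRD subunits Chd4, the helicase to which NAB proteins bind, had 634 ± 16.9 and 593 ± 4.49 CPM, a log2 fold change of -0.10.

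**Figure D5:**
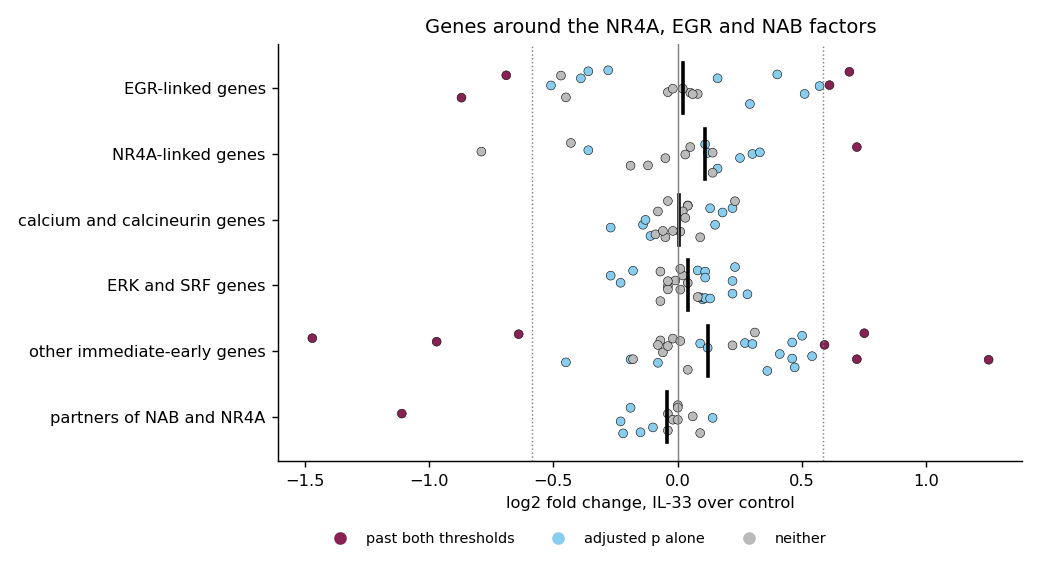
Each point is a tested gene of the list named on the left, by its log2 fold change with IL-33 over control; colours mark genes past both thresholds, past the adjusted p alone, or past neither, and black bars mark list medians. Points past both thresholds lie on either side of 0 among EGR-linked and other immediate-early genes, from -1.47 for Arc to 1.25 for Fosb, and none belongs to the calcium and calcineurin or the ERK and SRF list.

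The genes with the pattern closest to the member of each family with the highest mean CPM, a scale not corrected for length, were sought over the 6 libraries, among 8831 other genes with a mean of at least 10 CPM, by the root mean square difference between log2 CPM centred on each gene's mean. Closest to Egr1 were Ifng, the gene of interferon gamma, at 0.0527, Cdh1 at 0.0542 and Il13 at 0.0634. Ifng was at 42.7 ± 4.03 CPM without IL-33 and 83.2 ± 2.50 CPM with it (SD, n = 3 per group), and it shares exon bases with Gm49751 on the same strand. Closest to Nr4a3 were Ly6c1 at 0.0673, Nfkbid, an inhibitor of NF-κB, at 0.0678 and Nrgn at 0.0684; Nfkbid was at 47.5 ± 2.70 and 28.7 ± 1.77 CPM. Closest to Nab1 were Gimap6 at 0.00902, Herpud2 at 0.0110 and Sugt1 at 0.0114, all with log2 fold changes of 0.09. Herpud2 and Sugt1 did not pass the adjusted p threshold (adjusted p = 0.136 and 0.0805 in edgeR's quasi-likelihood test). Nab1 itself differed little between libraries, so small distances to it mark other genes that differed little. All 6 libraries fall in 2 groups, so likeness to Egr1 and Nr4a3 rests mainly on the difference between the groups.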

How the data were processed

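RNA of 6 libraries, 3 control and 3 with IL-33, had been sequenced by the study. Per library and gene, the authors deposited unnormalized read counts, and 1 column of signal named as the DESeq2 mean of normalized counts. That column was only compared with means computed from the counts and entered no result. The submitters' processing notes name Bowtie 0.12.2 and the mm8 build, with no role given, and the labels and the methods name different library kits (TruSeq and NEBNext Ultra). The counting program, the annotation and the strand setting were not given in the sources used here. Symbols, positions and merged exon lengths came from GENCODE M21 (GRCm38), which may not be the annotation used for counting and matched 26086 of 26128 identifiers.

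Low genes were removed by filterByExpr of edgeR (at least 10 counts, 15 in total), libraries were scaled by TMM and groups compared with edgeR's robust quasi-likelihood test, two-sided and without covariates, Benjamini-Hochberg adjusted over 14671 genes. A gene past both thresholds had an adjusted p under 0.05 and a fold change of at least 1.5 in either direction. The 8 genes, the 6 lists and the markers were chosen with earlier results of these data known. Named from each list were the called genes with at least 1 CPM and the 3 largest rises and 3 largest falls, and for likeness the 3 closest genes. Log2 CPM used a prior count of 2. Alternatives were other scaling, tests, filters, a replicate block and each library left out. Scripts were tested on simulated data. Tools were edgeR 4.0.16, DESeq2 1.42.0 and limma 3.58.1 in R 4.3.3.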

Additional observations from a re-analysis of the deposited data

How the results depend on the processing

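In all 96 recomputed values of the 8 genes, over 12 alternatives, the direction was kept and the log2 fold change moved by less than the spread between replicates. The adjusted p was 0.05 or more for Egr3 in 6 of these 12 fits, for Nab1 in 8 and for Nab2 in 2. For Egr3 these were the replicate block and all that left out 1 library other than control replicate 1, each fitted in edgeR. Between 4 and 5 of the 8 genes were past both thresholds with 1 library left out. Of 432 recomputed values of 36 other genes given with a fold change or an adjusted p, 420 had the same direction and stayed on one side of an adjusted p of 0.05. Nfatc2 was no longer past it in 2, at -0.09. With 1 library left out, genes that had not passed changed sign in 10, and their log2 fold changes ran from -0.02 to 0.04 for Srf, -0.01 to 0.04 for Ppp3ca, -0.04 to 0.00 for Ppp3cb, -0.03 to 0.02 for Rxrb and -0.05 to 0.02 for Nemp1. Over all genes 714 were past both thresholds, 113 when differences were tested against a 1.5-fold change rather than 0, and 621 to 719 with 1 library left out. Same-numbered libraries did not deviate together, with correlations of 0.00109, -0.00884 and 0.0111. Paired libraries that shared no large deviation would look the same, so whether the numbers pair them cannot be told. With the replicate number as a block 666 genes were past both thresholds. The number of EGR-linked genes past both thresholds ran from 3 to 5 and that of other immediate-early genes from 6 to 7 with 1 library left out. Egr4, with 0 to 9 counts per library, is limited by depth.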
